A study of Mus musculus with 4 samples.

Results

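Collagens are the triple-helical proteins that build most of the extracellular matrix, and their genes were examined here in mouse haematopoietic stem cells (HSCs), the rare marrow cells at the root of blood formation. The members are the 43 rows, of 34315 in the authors' table, with a name made of Col, a chain type number, a and a chain number. They lie on 14 chromosomes, and the exon length per gene in the table runs from 2714 to 11593 bases for the 41 of them that had a wild-type read. The cells were freshly sorted from the bone marrow of C57BL/6 mice as SP-KSL-CD150+ cells, a side population gate on dye efflux joined to stem cell surface markers, and their RNA was polyA-selected and sequenced. The wild-type group is 4 libraries that the labels call technical replicates of biological replicate 1, so p-values measure only the spread between these libraries, which may be technical, although the series design speaks of duplicates. The other arm is labelled Dnmt3a-KO, sorted in the same way, and enters only as the authors' mean count, log2 fold change and adjusted p-value. Its libraries were not analysed here, and the sources used here do not give the promoter or Cre behind the deletion, the age of the mice or any pooling.

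Each collagen gene encodes an alpha chain, and a molecule joins 3 alpha chains of the same or of different genes. Fibrillar collagens (types I, II, III, V, XI, XXIV and XXVII) form the cables of bone, cartilage, skin and tendon. Type IV forms the sheet of basement membranes, type VI forms beaded filaments, and the FACIT collagens attach to the surface of fibrils. In bone marrow most collagen is known to be made by osteoblasts, stromal cells and vessel cells rather than by blood cells, while HSCs bind collagen through integrins and other receptors. Dnmt3a is a methyltransferase that places methyl groups on the cytosine of CG dinucleotides (CpG).

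Promoter windows are shown for the genes that the authors' table called different between the arms, other than Col4a3, and for Col16a1, the collagen with the highest level, because CpG dinucleotides are the substrate of the enzyme named in the comparison. Of the 43 genes, 35 matched a RefSeq window in GRCm38.p6, a newer build than the mm9 coordinates of the count table. Each window spans 250 bases before to 50 bases after the gene's start and is written 5′ to 3′ on the gene's strand, with every CG in capitals.
Col4a1 (chr8:11312777-11313076, minus strand): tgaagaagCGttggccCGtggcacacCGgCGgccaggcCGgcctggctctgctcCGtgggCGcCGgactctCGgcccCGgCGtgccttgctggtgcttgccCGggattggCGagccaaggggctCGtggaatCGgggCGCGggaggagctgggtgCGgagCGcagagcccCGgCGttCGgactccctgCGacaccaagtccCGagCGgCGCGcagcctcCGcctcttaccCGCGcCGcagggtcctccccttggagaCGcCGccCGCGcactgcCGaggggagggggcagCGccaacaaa
Col4a2 (chr8:11312555-11312854, plus strand): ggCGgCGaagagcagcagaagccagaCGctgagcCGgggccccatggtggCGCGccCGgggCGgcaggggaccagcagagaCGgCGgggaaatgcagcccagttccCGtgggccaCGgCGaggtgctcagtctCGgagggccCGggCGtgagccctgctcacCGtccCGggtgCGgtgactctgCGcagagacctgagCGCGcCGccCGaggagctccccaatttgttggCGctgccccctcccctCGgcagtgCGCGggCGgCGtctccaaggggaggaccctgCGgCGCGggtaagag
Col5a1 (chr2:27886175-27886474, plus strand): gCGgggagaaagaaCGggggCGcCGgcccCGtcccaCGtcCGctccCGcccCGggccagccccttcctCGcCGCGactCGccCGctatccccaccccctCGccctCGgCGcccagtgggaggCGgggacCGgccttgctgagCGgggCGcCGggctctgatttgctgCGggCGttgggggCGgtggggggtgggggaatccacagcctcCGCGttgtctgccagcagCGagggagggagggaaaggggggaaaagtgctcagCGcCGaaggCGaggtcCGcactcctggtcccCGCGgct
Col11a1 (chr3:114030290-114030589, plus strand): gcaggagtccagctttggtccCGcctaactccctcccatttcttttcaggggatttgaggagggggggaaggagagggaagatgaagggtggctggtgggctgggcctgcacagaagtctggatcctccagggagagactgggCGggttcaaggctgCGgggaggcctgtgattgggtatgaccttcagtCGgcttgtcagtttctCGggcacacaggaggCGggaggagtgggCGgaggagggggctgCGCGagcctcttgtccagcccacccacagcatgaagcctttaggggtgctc
Col6a1 (chr10:76725995-76726294, minus strand): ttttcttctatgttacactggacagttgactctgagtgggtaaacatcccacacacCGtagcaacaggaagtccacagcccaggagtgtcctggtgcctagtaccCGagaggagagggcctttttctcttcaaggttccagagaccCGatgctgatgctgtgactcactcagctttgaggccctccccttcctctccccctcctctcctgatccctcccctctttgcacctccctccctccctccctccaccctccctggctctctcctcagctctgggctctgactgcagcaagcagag
Col8a2 (chr4:126286544-126286843, plus strand): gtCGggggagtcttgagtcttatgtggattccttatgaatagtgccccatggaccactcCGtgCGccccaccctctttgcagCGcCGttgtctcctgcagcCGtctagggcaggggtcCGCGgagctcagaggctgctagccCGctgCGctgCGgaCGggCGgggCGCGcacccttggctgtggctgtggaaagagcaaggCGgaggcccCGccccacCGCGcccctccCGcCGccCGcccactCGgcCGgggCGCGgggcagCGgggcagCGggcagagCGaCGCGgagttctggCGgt
Col16a1 (chr4:130047590-130047889, plus strand): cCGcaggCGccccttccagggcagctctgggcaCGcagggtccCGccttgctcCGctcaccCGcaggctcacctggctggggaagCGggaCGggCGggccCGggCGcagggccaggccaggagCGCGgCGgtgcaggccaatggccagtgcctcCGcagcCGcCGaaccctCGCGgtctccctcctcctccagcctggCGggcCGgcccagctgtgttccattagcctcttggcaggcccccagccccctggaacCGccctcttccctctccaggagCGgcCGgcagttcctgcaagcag
The windows of Col4a1 and Col4a2 share 78 bases, read on opposite strands. They hold 37 and 33 CpGs, that of Col5a1 holds 34, that of Col8a2 32 and that of Col16a1 24, whereas Col11a1 has 9 and Col6a1 has 3. The median was 7 over all 32851 windows in the table and 11.5 over the 38 collagen windows, and 94.6% of all windows held at least 1 CG. The GC box GGGCGG, searched on both strands, was found in 9 of the 10 windows of collagen genes with at least 100 normalised counts in wild type, in 7 of 11 windows for genes between 10 and 100, and in 7 of 17 windows for genes under 10, where 35.7% of all windows held it. It contains a CG, so it overlaps with the CpG count. CCAAT on either strand was found in 6 of 10, 3 of 11 and 4 of 17 of these windows against 37.4% of all windows, and TATAAA on either strand in 1 of 10, 0 of 11 and 4 of 17 against 13.6% of all windows. The shares over all windows were not split by level, so other genes of like level were not compared. Windows rather than genes were counted, and Col18a1, Col6a2 and Col9a1 each have more than 1. A match says only that these letters occur in the window.

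Library totals were 40709659 to 47408552 counts. Wild-type counts were divided by size factors of 0.951 to 1.065, and the authors' knockout mean was multiplied by 1.32, the factor implied by their own fold changes, to give normalised read counts on 1 scale. Libraries 1 and 2 differed from each other far less than from libraries 3 and 4. Chi-square per degree of freedom over features had a median of 0.763 and a mean of 2.03 between libraries 1 and 2. Between libraries 3 and 4 these were 0.682 and 1.87, while pairs taken across gave medians of at least 11.99. A mean above 1 is spread beyond counting noise. Libraries 1 and 2 were therefore counted as 1 sample and libraries 3 and 4 as another, and values of all 4 libraries are given. Neutrophil markers, for example, summed to 51012 and 50340 normalised counts in libraries 1 and 2 and to 10292 and 10218 in libraries 3 and 4. Dnmt3a itself was at 8424 normalised counts in the knockout mean, against 8399 in libraries 1 and 2 and 5304 in the other pair, with adjusted p 0.952 per the authors' deposited table. Which part of Dnmt3a was deleted is unknown from the sources used here, so this count, taken over all exons, is no check of the label.

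Collagen transcripts made up 0.0436%, 0.0429%, 0.0473% and 0.0468% of all counts in wild-type libraries 1 to 4 and 0.0455% in the knockout arm. The exact binomial 95% interval in library 1 was 0.0430% to 0.0443%, which covers counting error only because PCR copies are not independent molecules. Divided by its own column total, the share in the knockout arm thus lay within the range of the wild-type libraries. Column totals, in place of the factor applied to the knockout mean elsewhere, move all log2 ratios by -0.34. On the normalised scale the knockout collagen sum therefore stands higher against wild type than these shares show. Whether total collagen differed between the arms depends on the scaling. The make-up of the collagen counts does not depend on it, and did not lie within the wild-type range. Col16a1 supplied 36.6%, 35.8%, 36.8% and 36.9% of the collagen counts in the wild-type libraries and 78.4% in the knockout arm. The chains Col4a1 and Col4a2 together supplied 47.6%, 48.5%, 47.2% and 47.2% in wild type and 5.83% in the knockout arm. No test of these shares was possible, since the spread between the knockout libraries was not examined.

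**Figure D1:**
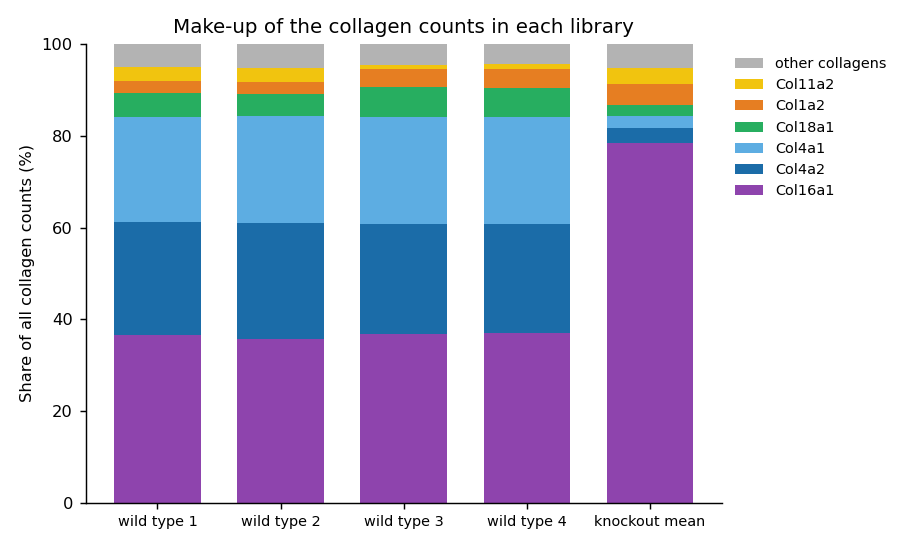
Share of all collagen counts (y axis, %) taken by the 6 collagen genes with most counts in wild type and by the other collagens together, in each wild-type library and in the authors' knockout mean. Col16a1 takes 35.8% to 36.9% in wild type and 78.4% in the knockout mean, and Col4a1 with Col4a2 takes 47.2% to 48.5% and 5.83%.

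In wild-type HSCs the collagen genes ranged from no read at all to the level of Col16a1. Of the 43, 22 reached a mean of 10 normalised counts, 9 reached 100 and the 4 highest were Col16a1, Col4a2, Col4a1 and Col18a1, while 10 had at most 3 reads over the 4 libraries. Levels between genes were compared per kb of exon. Col16a1, a FACIT chain that assembles with itself, was highest, at 1330, 1278, 1531 and 1495 normalised counts per kb in libraries 1 to 4. The main basement membrane chains followed, with Col4a2 at 724 to 806 per kb and Col4a1 at 650 to 756 per kb, ranges that overlap. Next came Col18a1, the source of endostatin, at 157 to 243 per kb, and Col1a2, a chain of type I collagen, at 90.1 to 171 per kb, which again overlap. Col11a2 followed at 35.8 to 103 per kb, and the X-linked type IV chains Col4a5 and Col4a6 at 26.98 to 29.9 and 13.5 to 30.0 per kb. All other collagens averaged at most 15.3 per kb, the value of Col5a1.

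Type I collagen is normally built from chains of both Col1a1 and Col1a2, but the levels of these genes differed widely. Col1a1, the more abundant chain in bone-forming cells, stood at 34.7, 37.7, 45.8 and 41.3 normalised counts in wild-type libraries 1 to 4 and Col1a2 at 461, 459, 861 and 871. Per kb of exon, Col1a2 exceeded Col1a1 by 11.6-fold in libraries 1 and 2, by 18.1-fold in libraries 3 and 4 and by 10.9-fold in the knockout mean. Type XI showed a like gap, with Col11a2 above Col11a1 by 19.3-fold per kb in libraries 1 and 2 and by 3.26-fold in libraries 3 and 4. Col3a1 and Col5a2, fibrillar chains of stromal cells, had 35 and 27 wild-type reads in all.

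**Figure D2:**
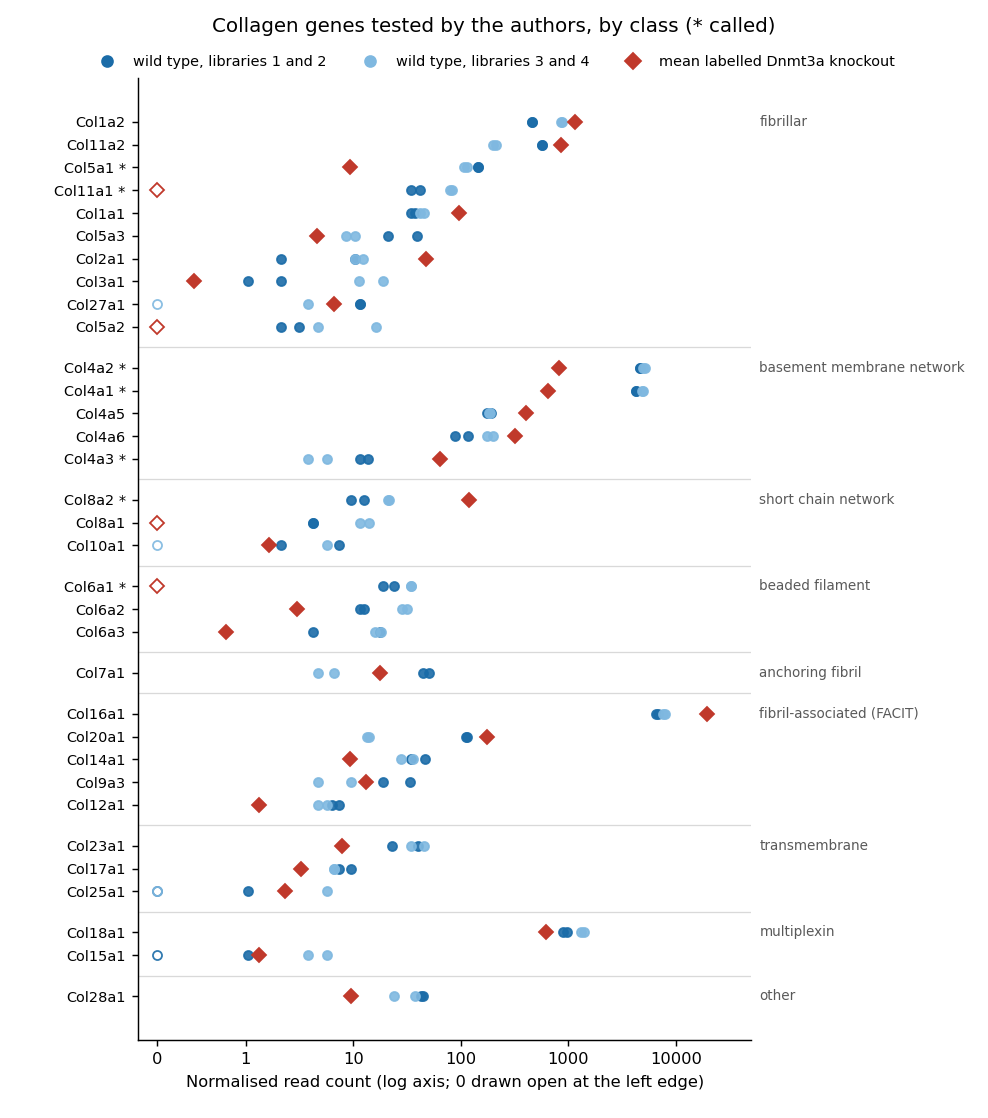
Normalised read count (x axis, log scale, 0 drawn open at the left edge) of the 33 collagen genes tested by the authors, grouped by class, with circles for the 4 wild-type libraries, diamonds for the authors' knockout mean and asterisks for the 7 called genes. Col4a1 and Col4a2 lie between 4269 and 5138 in wild type and at 652 and 816 in the knockout mean, while Col16a1 lies at 6562 to 7865 and at 19737.

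The authors' deposited table tested 33 of the 43 collagen genes between the arms, and at an adjusted p under 0.05 it called 5 lower and 2 higher in the knockout arm. These are 15.2% and 6.06% of the tested members, where the table called 3.70% of all 21778 tested features lower and 3.15% higher. At an adjusted p under 0.01 it called 3 of the 33 collagens lower and 0 higher, against 1.78% and 1.75% of all tested features. A mean of both arms of at least 50 normalised counts was reached by 12 collagens. Of these 12 the table called 3 lower and 1 higher, against 3.26% and 3.45% of all such features. The genes that fell were the basement membrane chains Col4a1 and Col4a2, the fibril-regulating chains Col5a1 and Col11a1, and the beaded filament chain Col6a1. Those that rose were Col4a3, a basement membrane chain best known from kidney, and Col8a2, a network chain of the corneal endothelium. The 10 members without a test had at most 3 wild-type reads and at most 7 knockout reads. In bulk samples such as these, fewer cells of a type and less RNA per cell cannot be told apart.

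Col4a1 and Col4a2, whose chains form the common type IV molecule of basement membranes, had the most reads of the called genes. Col4a1 stood at 4269, 4275, 4963 and 4854 normalised counts in wild-type libraries 1 to 4 and at 652 in the knockout mean. Col4a2 stood at 4624, 4618, 5138 and 4958 and at 816. For both genes the knockout mean lay below every wild-type library, as for 40.1% of all features with a mean of both arms of at least 10. The authors' deposited table gave Col4a1 a log2 fold change of -2.81 (adjusted p 0.0236) and Col4a2 one of -2.57 (adjusted p 0.0432). The wild-type mean exceeded the knockout mean by 7.04-fold for Col4a1 and by 5.93-fold for Col4a2. Against libraries 1 and 2 alone these ratios were 6.55 and 5.66, and against libraries 3 and 4 alone 7.53 and 6.19.

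In mm9 these genes lie head to head on chromosome 8, Col4a1 from 11198423 to 11312826 on the minus strand and Col4a2 from 11312829 to 11449287 on the plus strand, with 2 bases between them. The other type IV genes are arranged in the same way, Col4a3 and Col4a4 on chromosome 1 with 71 bases between them and Col4a5 and Col4a6 on the X chromosome with 1342. The ratio of Col4a1 to Col4a2 per kb was 0.777 in the knockout mean, against 0.899 in libraries 1 and 2 and 0.945 in the other pair. Col4a5, at 192, 174, 187 and 183 normalised counts in wild type, was at 407 in the knockout mean. Col4a6 was at 118, 89.0, 198 and 177 and at 321. Both had ratios of 2.21 over the wild-type mean and were not called, with adjusted p-values of 0.563 and 0.566 per the authors' deposited table.

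In the third pair, Col4a3 was called and its partner was almost without reads. Col4a3 stood at 13.7, 11.5, 5.72 and 3.76 normalised counts in wild-type libraries 1 to 4 and at 64.6 in the knockout mean, above every wild-type library. The authors' deposited table gave it a log2 fold change of 2.76 (adjusted p 0.0396). Fewer reads stood behind this value than behind those of Col4a1, 34 in wild type and 196 in the knockout arm, so the ratio of 7.45 has a counting interval of 5.29 to 11.3. The ratio was 5.13 against libraries 1 and 2 and 13.6 against libraries 3 and 4. Col4a4, the neighbour with which Col4a3 forms kidney basement membrane together with Col4a5, had 1 read in wild type and 3 in the knockout arm.

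**Figure D3:**
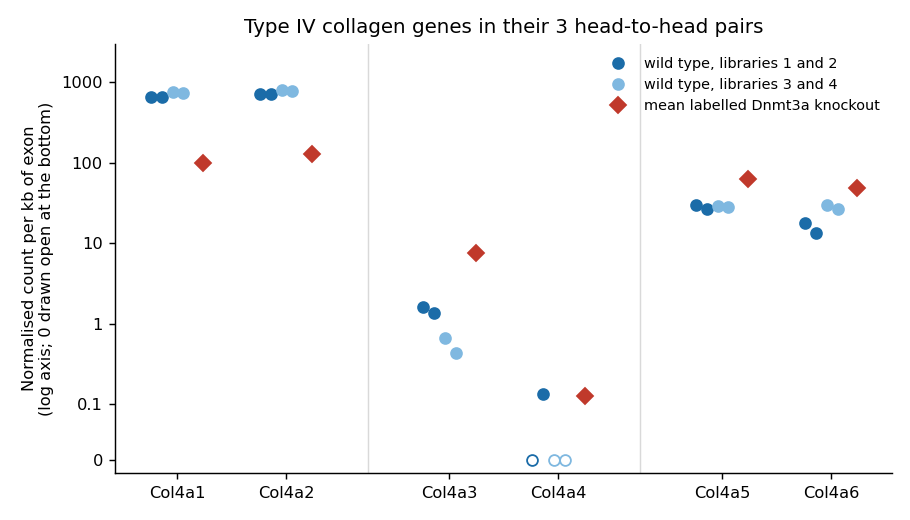
Normalised count per kb of exon (y axis, log scale, 0 drawn open at the bottom) of the 6 type IV collagen genes, set out as their 3 head-to-head pairs, with circles for the 4 wild-type libraries and diamonds for the knockout mean. Col4a1 and Col4a2 go from 650 to 806 per kb in wild type to 99.3 and 128, whereas Col4a3, Col4a5 and Col4a6 have diamonds above their circles.

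Among the fibrillar collagens, 10 of 11 genes were tested, of which 2 were called lower and none higher, where 3.70% and 3.15% of all tested features were. Of the 10, 5 had a positive and 5 a negative log2 fold change per the authors' deposited table. Col5a1, which helps to start fibrils and set their width, stood at 144, 146, 114 and 106 normalised counts in wild type and at 9.23 in the knockout mean. It was 13.8-fold lower than the wild-type mean (counting interval 9.38 to 20.9), with log2 fold change -3.59 and adjusted p 0.00479 per the authors' deposited table. Col11a1, a chain of cartilage fibrils, stood at 34.7, 41.9, 80.1 and 83.6 and had 0 reads in the knockout arm. Taking 3 counts over the arm's 4 libraries as the floor, it was at least 60.8-fold lower, or at least 38.7-fold against libraries 1 and 2 alone. This bound takes the wild-type mean as exact, and the exact counting interval of the ratio starts at 49.96. Col11a1 was called, with adjusted p 0.000129 per the authors' deposited table. For both genes every wild-type library lay above the knockout mean, as for 40.1% of all features with a mean of both arms of at least 10.

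The partners of Col11a1 in cartilage fibrils had knockout means above every wild-type library. So did 38.6% of all features with a mean of both arms of at least 10. Col11a2 stood at 570, 564, 198 and 212 normalised counts in the wild-type libraries and at 857 in the knockout mean, with adjusted p 0.556 per the authors' deposited table. Its ratio was 1.51 against libraries 1 and 2 and 4.17 against libraries 3 and 4. Col2a1, the main cartilage collagen, stood at 2.10, 10.5, 12.4 and 10.3 and at 47.1, with adjusted p 0.118. An antisense feature, HAG_013641, lies within Col2a1, and since the library kit as named does not mark strand, their reads cannot be told apart. For type I collagen, Col1a1 was at 96.6 in the knockout mean, above every wild-type library, and Col1a2 at 1149, also above every library, with adjusted p-values of 0.508 and 0.759 per the authors' deposited table. Col3a1 had 1 knockout read and Col5a2 none, and neither was called (adjusted p 0.144 and 0.243 per the authors' deposited table). Col27a1, of developing cartilage, had 26 reads in wild type and 20 in the knockout arm, and Col24a1 had no wild-type read and 7 knockout reads. Col5a3 was at 38.9, 20.9, 8.59 and 10.3 in wild type and at 4.61 in the knockout mean, and was not called (adjusted p 0.301).

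The beaded filament genes Col6a1, Col6a2 and Col6a3, whose chains join in type VI collagen, were all lower in the knockout mean than in every wild-type library, and 1 of them was called. Of all features with a mean of both arms of at least 10, 40.1% lay below all 4 wild-type libraries. Col6a3 did not reach that mean. Col6a1 stood at 18.9, 24.1, 34.3 and 34.7 normalised counts and had 0 reads in the knockout arm, at least 28.3-fold lower against the same floor, while its exact counting interval starts at 22.95. It was called, with adjusted p 0.00337 per the authors' deposited table. Col6a2 stood at 11.6, 12.6, 28.6 and 31.9 and at 2.97 in the knockout mean, with adjusted p 0.122. Col6a3 stood at 4.21, 17.8, 18.1 and 16.0 and had 2 knockout reads, with a ratio between 5.69 and 182 by counting error and adjusted p 0.0766. Col6a4, Col6a5 and Col6a6, all on chromosome 9, had at most 2 wild-type reads each and no knockout read.

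FACIT collagens included no called gene among the 5 tested of 9. Col16a1 stood at 6831, 6562, 7865 and 7678 normalised counts in wild type and at 19737 in the knockout mean. This is 2.73 times the wild-type mean and lies above every wild-type library, yet the adjusted p per the authors' deposited table was 0.389. Col20a1 stood at 114, 111, 13.4 and 14.1 and at 175, so that its ratio was 1.56 against libraries 1 and 2 and 12.7 against libraries 3 and 4, with adjusted p 0.395. Col14a1 was at 27.7 to 46.3 and at 9.23, and Col12a1 had 24 wild-type reads. Col9a3 was at 4.70 to 33.5 in wild type and at 13.2 in the knockout mean, within the wild-type range, and overlaps Tcfl5 on the opposite strand. Col9a1, Col9a2, Col19a1 and Col22a1 had at most 3 wild-type reads each and were not tested.

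Of the remaining classes, only the short chain network collagens included a called gene. Col8a2 stood at 9.47, 12.6, 21.0 and 21.6 normalised counts in wild type and at 120 in the knockout mean, above every library. It was 7.41-fold higher (counting interval 5.59 to 9.62), with log2 fold change 2.80 and adjusted p 0.0296 per the authors' deposited table. Col8a1, the chain most like it, had 35 wild-type reads and none in the knockout arm, with adjusted p 0.158. Col10a1, the collagen of hypertrophic cartilage, had 15 wild-type and 5 knockout reads and lies within Nt5dc1, a gene on the other strand. The multiplexin Col18a1, a heparan sulfate proteoglycan of basement membranes, stood at 980, 900, 1397 and 1327 and at 622, below every wild-type library, with adjusted p 0.705. Its relative Col15a1 had 11 wild-type and 4 knockout reads. The transmembrane collagen Col23a1 was at 23.1 to 45.8 in wild type and 7.91 in the knockout mean, and Col28a1 at 23.8 to 44.2 and 9.56, neither called. The other transmembrane collagens, Col17a1, Col25a1 and Col13a1, had 30, 7 and 2 wild-type reads. Col7a1, of the anchoring fibrils of skin, was at 44.2, 50.2, 6.68 and 4.70 in wild type and at 17.8 in the knockout mean, between the pairs.

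**Figure D4:**
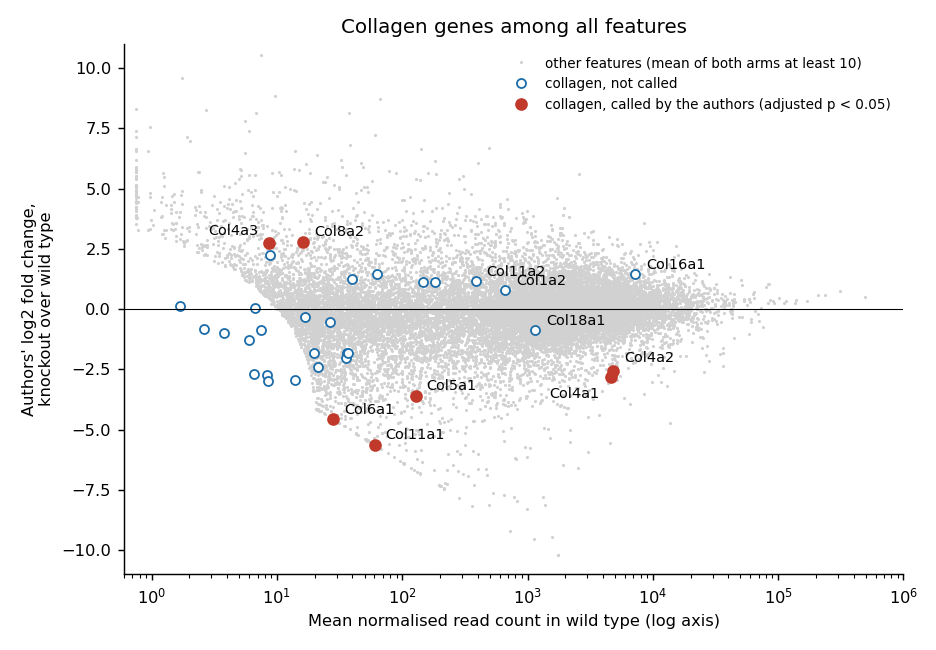
Authors' log2 fold change, knockout over wild type (y axis), against the mean normalised count in wild type (x axis, log scale) for the 33 tested collagen genes and, in grey, other tested features with a mean of both arms of at least 10 (a wild-type mean of 0 is drawn at the floor of 0.746). Filled circles are the 7 called collagen genes, with Col11a1 lowest at -5.63 and Col8a2 highest at 2.80.

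Size of difference was also counted without a test. A mean over both arms of at least 10 normalised counts was reached by 23 of the 43 genes, 8 of them with a knockout mean under 10 and 2, Col2a1 and Col4a3, with a wild-type mean under 10. Genes that pass through a single arm had to differ, so counts are also given for the 13 genes at 10 or more in both arms. Of these, 7 were at least 2-fold higher in the knockout mean, or 53.8%, where 15.1% of all 16186 such features were, and 2 were at least 2-fold lower, or 15.4%, where 16.1% were. When the knockout mean was instead scaled by its column total, which moves the median of all log2 ratios by -0.34, these counts changed. They became 3 higher and 3 lower of 13 genes, against 10.2% and 24.0% of all features. Over the 23 genes the counts were 9 higher and 10 lower, against 16.4% and 19.7%, and 5 and 11 with the column total. The median log2 ratio was 1.14 over the 13 genes at 10 or more in both arms, against -0.01 over all such features. Over the 23 genes it had the opposite sign, at -0.57, against -0.04 over all 17685 such features, and was 0.59 against libraries 3 and 4 alone. The knockout mean lay below all 4 wild-type libraries for 11 of the 23 genes and above all 4 for 10, where 40.1% and 38.6% of all features did so.

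The wild-type pairs also differed for several collagens. Of the 22 genes at 10 or more in wild type, 2 were at least 2-fold higher in libraries 3 and 4, Col11a1 and Col6a2, where 3.23% of all features were. At least 2-fold lower there were 5, Col11a2, Col20a1, Col5a3, Col7a1 and Col9a3, where 9.71% of all features were. Col7a1 and Col20a1 were 8.30-fold and 8.18-fold higher in libraries 1 and 2. These pairs are not labelled groups, and no test between them was run.

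Enzymes that modify and fold collagen chains in the endoplasmic reticulum were mostly not called. Of 19 such genes found, 17 were tested. None was called higher and 1 lower, where 3.15% and 3.70% of all tested features were. The median log2 change was 0.37 per the authors' deposited table, where the median over all tested features was -0.10. The gene that fell was Fkbp10, a collagen chaperone, from 243, 245, 348 and 364 normalised counts to 32.6, with adjusted p 0.0111. Serpinh1, the collagen-specific chaperone HSP47, stood at 464, 412, 666 and 657 and at 2692 in the knockout mean, 4.90 times the wild-type mean with adjusted p 0.0821 per the authors' deposited table. The prolyl hydroxylase subunits P4ha1, P4ha2 and P4hb had knockout to wild-type ratios of 2.09, 2.95 and 1.07, and the lysyl hydroxylases Plod1, Plod2 and Plod3 had ratios of 1.18, 2.70 and 2.48. None of these was called, and the smallest adjusted p among them was 0.393 per the authors' deposited table.

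Among 14 genes that trim procollagen or cross-link it, 12 were tested, 1 was called higher and 1 lower, with a median of 0.39 per the authors' deposited table. Beside each list here, 3.15% of all tested features were called higher and 3.70% lower. Lox, the lysyl oxidase that cross-links collagen and elastin, rose from 90.5, 102, 311 and 342 normalised counts to 2705, with adjusted p 0.00223. Adamts2, which removes the amino-terminal propeptide, fell from 13.7, 6.28, 15.3 and 16.9 to 0 reads, at least 13.2-fold lower against the floor, with an exact counting interval from 10.5 and adjusted p 0.0492 per the authors' deposited table. Of 10 collagen receptors, 9 were tested, 1 was called higher and none lower, with a median of -0.25. Ddr1, a receptor tyrosine kinase that binds collagen, rose from 106, 122, 187 and 171 to 1640, with adjusted p 0.00398 per the authors' deposited table. Its relative Ddr2 was at 7.36 to 24.4 in wild type and 9.23 in the knockout mean, and the integrin chain Itga2 was at 427 to 476 and 92.9 with adjusted p 0.0930, neither called. Of 15 genes for collagen breakdown and its inhibitors, 11 were tested and none was called, with a median of 0.34 per the authors' deposited table.

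Other genes of the matrix and basement membrane were called in both directions. Of 24 found, 22 were tested, 3 were called higher and 2 lower, with a median of -0.86 per the authors' deposited table. Over all tested features, 3.15% were called higher and 3.70% lower. Thbs1, the adhesive protein thrombospondin, rose from 99.9, 96.3, 270 and 278 normalised counts to 9076, with adjusted p 3.35e-06. Fibronectin, Fn1, rose from 350, 353, 1808 and 1681 to 11268, and the laminin chain Lama5 from 1928, 1948, 1028 and 1043 to 10454, with adjusted p-values of 0.00444 and 0.0234. Another laminin chain, Lamb1, fell from 15.8, 9.42, 25.8 and 32.9 to 3 knockout reads, with a ratio between 7.16 and 107 by counting error and adjusted p 0.0303. Tenascin, Tnc, fell from 30.5, 33.5, 72.5 and 80.8 to 2 knockout reads, with a ratio between 23.0 and 699 and adjusted p 0.000564 per the authors' deposited table.

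**Figure D5:**
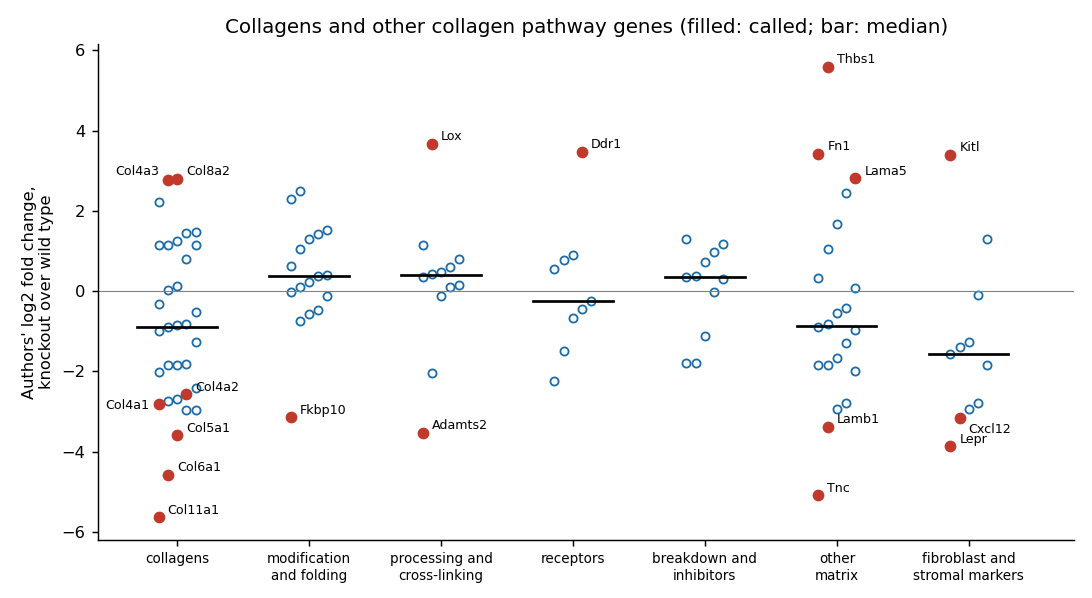
Authors' log2 fold change, knockout over wild type (y axis), of each tested gene in the collagen family, in 5 lists of collagen pathway and matrix genes and in the fibroblast and stromal markers, with filled circles for called genes and bars for medians. The median of the modification and folding list is 0.37 and that of the stromal markers is -1.56.

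Markers of cells known to make collagen are set beside these values. The 11 fibroblast and marrow stromal markers summed to 2426, 2310, 2811 and 2603 normalised counts in wild-type libraries 1 to 4 and to 1414 in the knockout mean. All 11 were tested, 2 were called lower (Cxcl12 and Lepr) and 1 higher (Kitl), and the median log2 change was -1.56 per the authors' deposited table. Beside each marker list, 3.70% of all tested features were called lower and 3.15% higher. Kitl rose from 42.1, 40.8, 86.8 and 86.4 to 690 in the knockout mean (adjusted p 0.00504 per the authors' deposited table). Acta2 was also higher, with a knockout to wild-type ratio of 2.61, and was not called. The other markers of the list had negative log2 changes. Lum had no read in libraries 1 and 2 nor in the knockout arm and stood at 18.1 and 10.3 in libraries 3 and 4. Dcn was at 0, 4.19, 27.7 and 20.7 and had 3 knockout reads. Of the 7 osteoblast markers, 5 were tested, 1 was called lower and none higher, with a median log2 change of -1.36 per the authors' deposited table. The called gene, Ibsp, was at 13.7, 15.7, 77.3 and 56.3 and fell to 1.32 in the knockout mean (adjusted p 0.00395). Spp1 went the other way, from 118, 112, 266 and 241 to 364, and was not called (adjusted p 0.658 per the authors' deposited table). Alpl and Sp7 were lower in the knockout mean and not called, and Bglap had 0 reads in libraries 1 to 3. Runx2 held most of the list's sum, which ran from 5424 to 6008 in wild type and was 5629 in the knockout mean. The part of these cells in the collagen values was not tested. The 8 endothelial markers summed to 43985 to 58481 in wild type and to 90880 in the knockout mean, with none called and a median log2 change of -0.14 per the authors' deposited table. Vwf alone held 16466, 16770, 26083 and 25639 of these sums in wild type and 59985 in the knockout mean, whereas Emcn was at 808 to 1542 in wild type and at 304. The 8 megakaryocyte markers, 3 of them called lower, summed to 46574 to 50881 in wild type and to 41826 in the knockout mean. The 8 stem cell markers summed to 119109 to 149266 and to 111041. None of the stem cell markers was called, and their median log2 change was 0.22 per the authors' deposited table. They went both ways. Kit went from a wild-type mean of 60690 to 44981 and Hlf from 34509 to 9511. Procr went from 3929 to 21292 and Ly6a from 3035 to 7094.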

How the data were processed

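The authors deposited 1 table with whole-number read counts per feature for the 4 wild-type libraries, in mm9 coordinates. Per the submitters' processing notes the build was mm9 and DESeq was used, without a version, while no source used here names the aligner, the counter or the gene models. The authors also deposited a length-scaled signal under an FPKM heading whose ratio to the count is the same in every library, and only exon lengths were taken from it. The knockout mean, the log2 fold change (knockout over wild type) and the p-value, read as adjusted because 17567 tested features share theirs with another, are those deposited by the authors. Of the table's 30 columns, 8 with per-library values match no sample here and were left out.

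Size factors were medians of ratios, and counts were scaled by them (Python 3.11.15, NumPy 2.4.6, pandas 2.3.3, SciPy 1.17.1). The offset between that scale and the authors' log2 fold changes (0.399, SD 0.00298 over 11936 features) was applied to the knockout mean. Genotypes were not tested anew: a gene is called where the authors' deposited p-value, read as adjusted, is under 0.05. With 3 counts as the floor, a gene without reads in a library may reach 0.0737 CPM; for the knockout arm the floor is 3 counts over its 4 libraries. Counting intervals of ratios are exact conditional 95% intervals and cover counting error only. Size factors, the chi-square check and the offset were tested on simulated data.

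The members and gene lists were chosen with earlier results of these data known. Named genes were all called collagens, the 8 highest per kb in wild type, the 6 largest log2 changes each way among those with a mean of 10 or more in both arms together, as many as 4 called genes of each other list, and 11 pathway genes whatever their values. Genes listed under an older or newer symbol were matched where the table had either, and Mia3 was not matched. Other genes are named as ranges, or after their values were seen. Alternatives were other scalings (edgeR 4.0.16 TMM with R 4.3.3, library totals), other minimum levels and thresholds, and leaving out libraries.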

Additional observations from a re-analysis of the deposited data

Results flagged for a closer look

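Col6a3, a chain of type VI collagen, stood at 4.21 normalised counts in wild-type library 1 and at 17.8, 18.1 and 16.0 in libraries 2 to 4. The gap of library 1 to the nearest other library was 0.845 of the whole range, above Dixon's 95% critical value for 4 samples. In all, 31 items were examined, made up of collagen genes, summed marker levels and the collagen share of counts. Chance exceeds this value in about 1 of 20 groups of independent samples. Libraries 1 and 2 and libraries 3 and 4 form pairs that differ far less within than across, so that rate need not hold here. Library 1 held 4 reads of Col6a3 and library 2 held 17.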

How the results depend on the processing

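No paired analysis was possible because the labels give a single group. Scaling by library totals or TMM left all counts as they were. The calls rest on the threshold. Under 0.01 the authors' deposited table called 0 of the 33 tested collagens higher and 3 lower, where it called 1.75% and 1.78% of all tested features. Among the 12 collagens with a mean of at least 50 it called 1 higher and 3 lower, where it called 3.45% and 3.26% of all such features. With the knockout mean scaled by its column total, 5 of 23 genes were at least 2-fold higher, and 3 of the 13 at 10 or more in both arms. At least 4-fold higher were 3 of the 23 genes and at least 4-fold lower were 8. With no minimum, which adds genes near the floor, 11 of 43 were at least 2-fold higher and 17 lower. With a minimum of 50, 7 of 12 were at least 2-fold higher and 3 lower. Shares over all features were not counted at these settings. The median log2 ratio of the 23 genes turned to 1.14 with a minimum of 50 and to 0.59 against libraries 3 and 4 alone, and ran from -0.81 to -0.06 with a library left out. At least 3 wild-type reads were found for 34 genes and at least 50 normalised counts for 11. Without Col16a1, collagens took 0.0287% of the counts in place of 0.0452%. The 17 collagens that met the rule for named genes kept their direction in the 9 settings run for each. That rule favours genes that were called, high or strongly changed. Outside that set direction could reverse. The knockout to wild-type ratio of Col7a1 was 0.377 against libraries 1 and 2 and 3.13 against libraries 3 and 4. For Col9a3 these ratios were 0.503 and 1.85. Depth limits the genes under 10 normalised counts, whose ratios have wide counting intervals. The counts over genes at 10 or more in both arms, the column total for the median and for single genes, and leaving out genes that overlap another feature were chosen after seeing the data.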
